A study of Homo sapiens with 6 samples.

Results

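Messenger RNAs whose coding sequence is a known target of adenosine-to-inosine editing were followed in MDA-MB-231 cells made to overexpress an editing enzyme. The genes were AZIN1, BLCAP, COPA, CCNI, COG3, FLNA, CYFIP2, NEIL1 and IGFBP7, chosen by name for their recoding sites, and they are 9 of the 60461 genes in the deposited count table. All 9 had enough counts to be tested, among 18899 tested genes. MDA-MB-231 is a long-established line of triple-negative breast cancer cells. One group of 3 libraries came from cells transduced with an adenovirus coding for the p110 form of ADAR1, and the other 3 came from cells transduced with an eGFP adenovirus (GFP below). Both groups therefore carried virus, at a multiplicity of infection of 200, with the medium changed at 16 h and total RNA taken at 48 h. Cells without virus were not analysed here. The labels call the replicates biological without saying how cultures were kept apart. P-values therefore reflect only how far these libraries scatter, which may in part be technical.

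Adenosine deaminases acting on RNA convert adenosine to inosine within double-stranded RNA, and the ribosome reads inosine as guanosine. Where the adenosine lies in a codon, the protein can gain a different amino acid, which is called recoding. ADAR1 (gene ADAR) is the enzyme behind the best studied sites in AZIN1 and NEIL1, whereas the sites in FLNA and CYFIP2 are mainly served by its relative ADAR2 (gene ADARB1). Gene counts measure how much of an mRNA is present and do not show which copies were edited, so editing itself was not measured here and the comparison concerns mRNA level alone.

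The sequences below show where recoding is known to act in 8 of the 9 genes. Each is 29 bases of the GRCh37 reference on the strand of the mRNA, 5′ to 3′, with the edited adenosine in capitals. At every site the reference codon encoded the amino acid named first, and an A-to-G change at the capital letter gave the one named last. Residues are counted from the start codon of the GENCODE reference coding model.

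BLCAP Y2C, chr20:36147548-36147576, minus strand: atgtAttgcctccagtggctgctgcccgt

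BLCAP Q5R, the same window: atgtattgcctccAgtggctgctgcccgt

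BLCAP K15R, chr20:36147519-36147547, minus strand: cctcctcatccccaAgcccctcaaccccg

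COPA I164V, chr1:160302230-160302258, minus strand: tgcgcgtttgggatAtttctggtgagctg

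CCNI R75G, chr4:77979666-77979694, minus strand: gcagtcttttggatAggtttttagctacc

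COG3 I635V, chr13:46090357-46090385, plus strand: tcaccattaaggaaAtttccctggacctc

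FLNA Q2341R, chrX:153579936-153579964, minus strand: tgtttctagccttcAggtgaggcaccgag

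CYFIP2 K320E, chr5:156736794-156736822, plus strand: tggccagatacattAagaccagtgctcac

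NEIL1 K242R, chr15:75646072-75646100, plus strand: tcccacagggggcaAaggctacgggtcag

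IGFBP7 R78G, chr4:57976272-57976300, minus strand: gtggcggcgccggcAgggggtactgcgcg

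IGFBP7 K95R, chr4:57976220-57976248, minus strand: ccgcaagaggcggaAgggtaaagccgggg

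The bases beside the adenosine varied among the 11 sites. The base before the adenosine was A or T in 8 of 11 sites and G in 0 of 11, whereas 35.4% of the 5066 coding adenosines in the same gene models followed an A or a T. A G came directly after the adenosine in 6 of 11 sites and after 32.7% of those coding adenosines. These shares describe known sites and were not tested, and sites within a gene are not independent. The coding adenosines were taken at every codon position, whereas the 11 sites lie at position 1 or 2 of their codons. A preceding G was counted among the sites alone. Several sites lie close to an intron, where exon and intron can pair to form the double strand that the enzyme needs. The FLNA adenosine, in exon 43 of 48, was 1 base from the end of its exon. The COPA adenosine, in exon 6 of 33, was 6 bases from the end of its exon, and the NEIL1 adenosine, in exon 6 of 10, was 6 bases from the start of its exon. The windows of these 3 genes therefore run into intron sequence. Both IGFBP7 sites lie in exon 1 of 5 and all 3 BLCAP sites in exon 2 of 2, each at least 180 bases from either end of the exon. The CCNI site lies in exon 3 of 7, that of COG3 in exon 17 of 23 and that of CYFIP2 in exon 11 of 32.

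The libraries held 72741235 to 99589278 counts, and ADAR was raised in the libraries where the labels place the transgene. ADAR stood at 1006 ± 13.2 CPM (counts scaled to a common library total) after ADAR1 p110 and at 267 ± 8.67 CPM after GFP (mean ± SD, n = 3 each), and ADARB1 at 21.8 ± 0.563 and 24.0 ± 0.777 CPM. ADAR counts do not part transgene from endogenous transcripts. All 7 markers listed for the basal or mesenchymal line were tested. VIM stood at 2179 and 1952 CPM, and SPARC was the lowest at 1.25 and 1.53 CPM. CAV1 alone of these 7 passed the edgeR test, being higher after ADAR1 p110 (log2 fold change 0.20, adjusted p = 0.0378). The log2 fold change was positive for 4 of the 7, and CD44 was lower without passing (-0.26, edgeR adjusted p = 0.209). Of 7 luminal markers, ESR1, PGR and FOXA1 were too low to be tested, while KRT19 (435 and 372 CPM), ERBB2 (90.1 and 85.8 CPM), EPCAM (10.6 and 10.2 CPM) and GATA3 (3.61 and 3.54 CPM) were detected. ADAR1 p110 replicate 1 and GFP replicate 2 stood apart from the other 4 libraries on the second principal component, which carried 21.8% of the variance and on which these libraries scored 26.2 and 24.1.

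None of the 9 recoding targets passed the test for a change in mRNA level. The edgeR quasi-likelihood test with Benjamini-Hochberg adjustment over all tested genes called 0 of 9 at an adjusted p under 0.05, against 4.91% of all tested genes (1.95% higher and 2.96% lower). At an unadjusted p under 0.05 it found 1 of 9, IGFBP7, against 18.6% of all tested genes. The DESeq2 Wald test called 1 of 9, again IGFBP7, against 6.89% of all tested genes, and limma-voom called 0 of 9 against 5.07%. The median log2 fold change of the 9 genes was 0.00, as it was over all tested genes. The median size of the log2 fold change, regardless of sign, was 0.04 for the 9 and 0.12 for all tested genes, which include many genes of low count. Among genes of at least 30 mean CPM, a limit set after the values were seen, it was 0.01 for the 7 recoding targets and 0.07 for the 6418 tested genes. In 2 of the 9 genes the groups did not overlap, IGFBP7 being higher and COPA lower in every ADAR1 p110 library, and 24.0% of all tested genes were separated in this way.

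**Figure D1:**
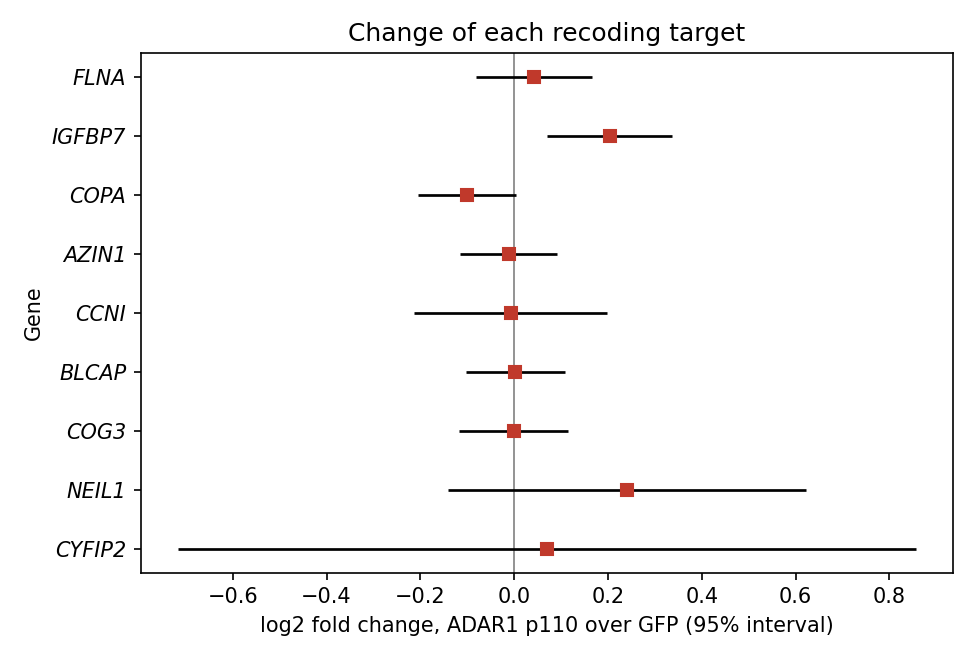
Squares mark each recoding target's log2 fold change (horizontal axis; values above 0 are higher after ADAR1 p110) and lines its 95% interval from the edgeR fit, genes running down by level per kilobase. The interval of IGFBP7, 0.07 to 0.34, lies above 0 without adjustment for the number of genes, and those of CYFIP2 (-0.72 to 0.86) and NEIL1 (-0.14 to 0.62) are the widest.

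The 9 mRNAs differed greatly in level. To compare genes, CPM were divided by the gene length in kilobases given in the deposited table. On this scale FLNA stood at 424 ± 17.1 after ADAR1 p110 and 411 ± 21.4 after GFP. IGFBP7 followed at 244 ± 11.8 and 212 ± 13.8. Both ranked within the top 1% of tested genes, at percentiles 99.8 and 99.4. A middle group held COPA (55.5 ± 1.88 and 59.5 ± 0.639), AZIN1 (46.8 ± 0.292 and 47.1 ± 1.43) and CCNI (37.9 ± 5.13 and 38.1 ± 3.49), at percentiles 93.9 to 96.3. BLCAP and COG3 were lower, at 9.34 ± 0.0725 and 6.52 ± 0.0831 per kilobase after ADAR1 p110. NEIL1 (0.586 ± 0.0739 and 0.496 ± 0.132) lay at percentile 28.7 and CYFIP2 (0.0276 ± 0.00858 and 0.0268 ± 0.00579) at percentile 1.08. The order was the same in all 6 libraries, and no pair of neighbours overlapped in range. The lowest AZIN1 library had 46.0 and the highest CCNI library 43.8 CPM per kilobase, so that these neighbours lay close together.

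**Figure D2:**
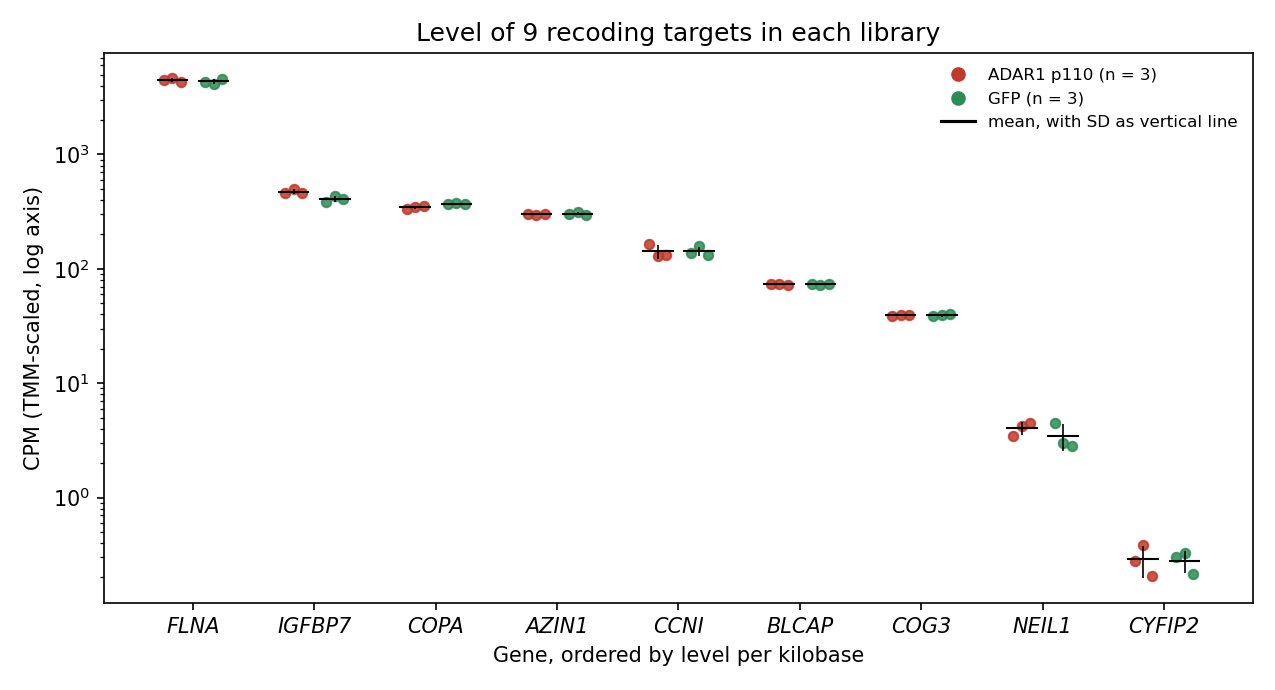
Each point is the CPM of a recoding target in 1 library on a log axis, red for ADAR1 p110 and green for GFP. Bars across are means and upright lines SDs of 3 libraries. The genes span from FLNA, at 4483 and 4354 CPM, to CYFIP2, at 0.290 and 0.281 CPM, and the 2 groups lie side by side for each gene.

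Among the targets that act in membrane traffic, COPA was slightly lower after ADAR1 p110 without passing the test, and COG3 stood at nearly the same mean in both groups. COPA (ENSG00000122218.14_2, hg19 chromosome 1, 160259063 to 160313190, minus strand) encodes the alpha subunit of the COPI coat, which returns vesicles from the Golgi to the endoplasmic reticulum. It had 334, 346 and 357 CPM in ADAR1 p110 replicates 1, 2 and 3, and 371, 374 and 367 CPM in the GFP replicates. Every ADAR1 p110 library was below every GFP library, by a small margin, with ADAR1 p110 replicate 1 the lowest. The log2 fold change was -0.10 (SE 0.048, 95% interval -0.21 to 0.00, edgeR adjusted p = 0.292), which spans -13.3% to 0.340%. As in any bulk sample, less RNA per cell and fewer cells with the RNA cannot be told apart.

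The other COPI genes gave no called change either. Of 13 coat subunits and ARF regulators tested, 0 were called, against 4.91% of all tested genes. These 13 had a median log2 fold change of -0.05 and a range of -0.09 to 0.28. Their most abundant member per kilobase, ARF1, the small GTPase that recruits the coat, stood at 404 ± 6.47 and 424 ± 25.1 CPM. COPA supplied 13.78%, 13.74% and 13.82% of the length-scaled counts of the 9 coat subunit genes in the ADAR1 p110 replicates, and 14.15%, 14.70% and 14.03% in the GFP replicates. These shares did not overlap, but 3 libraries against 3 allow no exact permutation p below 0.1. That of COPA was 0.1 (two-sided, 0.54 after Benjamini-Hochberg adjustment over 9 families). The same limit holds for each family share below, so that none could pass 0.05. The gene for nicastrin, NCSTN, overlaps COPA on the opposite strand. Its counts came to 22.3% of those of COPA, its log2 fold change was -0.08, and its exons share 1.06% of the exonic bases of COPA.

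COG3 (ENSG00000136152.14_2, hg19 chromosome 13, 46039033 to 46110765, plus strand) encodes a subunit of the conserved oligomeric Golgi complex, which tethers vesicles within the Golgi. It had 38.6, 39.4 and 39.6 CPM after ADAR1 p110 and 38.3, 39.1 and 40.3 CPM after GFP, with the GFP libraries spanning those of the other group. Its log2 fold change was 0.00 (SE 0.052, edgeR adjusted p = 0.994), with a 95% interval of -7.77% to 8.22%. Of the 8 rows tested for the other 7 complex genes, COG8 being listed under 2 identifiers, 0 were called. The share over all tested genes was 4.91%. The 8 rows had a median log2 fold change of -0.06. COG4, the most abundant of them per kilobase, stood at 63.3 ± 4.46 and 62.8 ± 2.57 CPM. COG3 held 14.1% ± 0.228 of the length-scaled counts of the complex after ADAR1 p110 and 13.7% ± 0.370 after GFP (exact permutation p = 0.3, adjusted p = 0.54).

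The cytoskeletal targets were the most and the least abundant of the 9. FLNA (ENSG00000196924.14_2, hg19 chromosome X, 153576892 to 153603006, minus strand) encodes filamin A, which crosslinks actin filaments and ties them to membrane receptors. It had 4489, 4661 and 4300 CPM after ADAR1 p110 and 4291, 4166 and 4605 CPM after GFP, and the groups overlapped. At 302243 to 459290 counts per library, counting error was small beside the spread between libraries. The log2 fold change was 0.04 (SE 0.056, edgeR adjusted p = 0.762), with a 95% interval of -5.54% to 12.2%.

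Of 15 filamins and actin crosslinkers tested, 0 rose and 1 fell, that is 6.67% against 4.91% of all tested genes. The list median was -0.03. FBLIM1, which encodes migfilin, a partner of filamins at cell contacts, fell to 11.6 ± 0.617 CPM from 14.9 ± 1.24 CPM after GFP, or -0.37 on the log2 scale (SE 0.0809, edgeR adjusted p = 0.0262). Leaving out ADAR1 p110 replicate 2 or 3, or GFP replicate 1 or 3, ended that call (adjusted p = 0.0837 to 0.143).

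CYFIP2 (ENSG00000055163.19_3, hg19 chromosome 5, 156693089 to 156822603, plus strand) encodes a subunit of the WAVE complex, which starts branched actin networks, and is best known from neurons and leukocytes. It had 21, 38 and 16 counts after ADAR1 p110 and 26, 24 and 21 counts after GFP, or 0.276, 0.386 and 0.207 against 0.300, 0.331 and 0.213 CPM. The highest and the lowest library were both ADAR1 p110 libraries, so the groups overlapped entirely. At this depth a change was hard to detect: the log2 fold change was 0.07 (SE 0.356, edgeR adjusted p = 0.951), with a 95% interval of -39.2% to 81.0%. Its sign turned when a single library was set aside, to -0.20 without ADAR1 p110 replicate 2 and to -0.10 without GFP replicate 3.

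Of the 10 other WAVE complex genes, 8 were tested and 0 were called, against 4.91% of all tested genes. NCKAP1L and ABI3 were too low to be tested. The 8 had a median log2 fold change of 0.01 and a range of -0.06 to 0.13. CYFIP1, the paralog that can take its place in the complex, stood at 126 ± 1.76 and 124 ± 2.51 CPM. CYFIP2 made up 0.228% ± 0.0692 of the length-scaled counts of the 2 paralogs after ADAR1 p110 and 0.225% ± 0.0515 after GFP (exact permutation p = 1.0). BRK1, the most abundant member per kilobase, stood at 121 ± 4.76 and 126 ± 4.12 CPM. ADAM19, which overlaps the CYFIP2 locus on the opposite strand and encodes a membrane metalloprotease, had 148332 counts over the 6 libraries against 146 for CYFIP2. ADAM19 fell to 246 ± 11.2 CPM from 334 ± 6.23 CPM after GFP (log2 fold change -0.44, edgeR adjusted p = 6.03e-04). Exons of the 2 genes share 0.587% of the exonic bases of CYFIP2, and whether reads of ADAM19 reached the CYFIP2 count was not tested. The non-coding genes AC008676.1 and AC008676.2, also on the opposite strand within the locus, had 50 and 27 counts and were not tested.

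Among the targets tied to growth and proliferation, AZIN1, CCNI and BLCAP had nearly equal group means, and IGFBP7 was higher after ADAR1 p110 in every library. AZIN1 (ENSG00000155096.13_3, hg19 chromosome 8, 103838585 to 103906092, minus strand) encodes antizyme inhibitor, which binds antizyme and so spares ornithine decarboxylase, the first enzyme of polyamine synthesis. It had 301, 298 and 302 CPM after ADAR1 p110 and 300, 313 and 296 CPM after GFP. Its log2 fold change was -0.01 (SE 0.047, edgeR adjusted p = 0.934), with a 95% interval of -7.69% to 6.54%. It turned positive, at 0.01, with library size alone and, at 0.02, without GFP replicate 2.

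The polyamine pathway around AZIN1 gave 0 higher and 1 lower of 11 tested genes, that is 9.09% against 4.91% of all tested genes. Its median log2 fold change was 0.06. ODC1, ornithine decarboxylase, stood at 273 ± 21.7 and 294 ± 5.35 CPM without passing the test. SMOX, spermine oxidase, which breaks polyamines down, fell to 20.5 ± 2.06 CPM from 27.1 ± 1.86 CPM after GFP, or -0.40 on the log2 scale (SE 0.0821, edgeR adjusted p = 0.0181). Leaving out ADAR1 p110 replicate 3 or GFP replicate 1 ended that call (adjusted p = 0.092 and 0.101). AZIN1 held 33.4% ± 1.84 of the length-scaled counts of AZIN1, ODC1 and AZIN2 after ADAR1 p110 and 32.0% ± 0.880 after GFP (exact permutation p = 0.3, adjusted p = 0.54).

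CCNI (ENSG00000118816.9_3, hg19 chromosome 4, 77968311 to 77997158, minus strand) encodes cyclin I, an atypical cyclin whose level varies little through the cell cycle. It had 163.98, 129.08 and 132.64 CPM after ADAR1 p110 and 137.22, 157.50 and 133.06 CPM after GFP. Its highest libraries were ADAR1 p110 replicate 1 and GFP replicate 2, the libraries set apart on the second principal component. Between these the log2 difference, ADAR1 p110 minus GFP, was 0.06, and between the means of the other 4 libraries it was -0.05. Its log2 fold change was -0.01 (SE 0.093, edgeR adjusted p = 0.983), with a 95% interval of -13.7% to 14.8%. It turned positive without ADAR1 p110 replicate 2 (0.06), ADAR1 p110 replicate 3 (0.04) or GFP replicate 2 (0.07). Of 12 atypical cyclins and partners tested, 0 were called, against 4.91% of all tested genes, with a median of -0.03. CCNG1, the most abundant of them per kilobase, stood at 88.7 ± 4.13 and 82.3 ± 1.72 CPM. CCNI held 55.0% ± 2.61 of the length-scaled counts of CCNI, CCNG1 and CCNG2 after ADAR1 p110 and 56.9% ± 1.73 after GFP (exact permutation p = 0.4, adjusted p = 0.6).

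**Figure D3:**
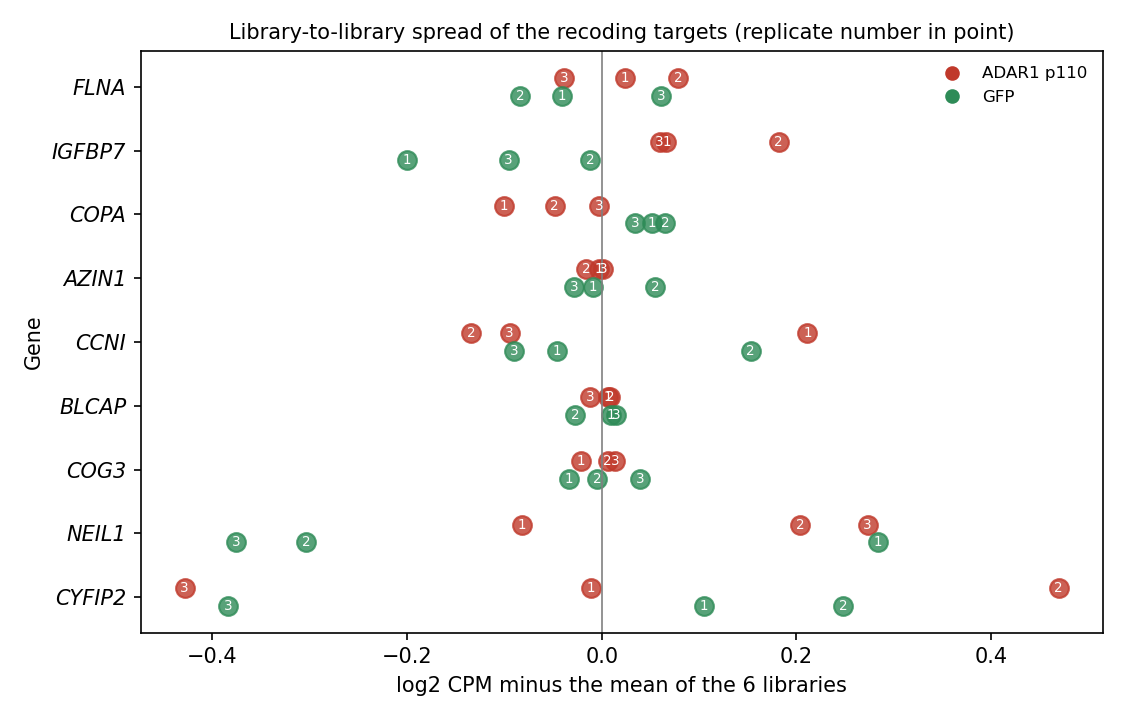
Each point is 1 library, labelled by its replicate number and coloured red for ADAR1 p110 or green for GFP, placed by its log2 CPM less the 6-library mean of that gene. For CCNI the libraries at 0.21 and 0.15 are ADAR1 p110 replicate 1 and GFP replicate 2, and for IGFBP7 and COPA the colours do not overlap.

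BLCAP (ENSG00000166619.12_3, hg19 chromosome 20, 36120874 to 36156333, minus strand) encodes a small protein first found through its loss in bladder cancer. It had 73.8, 73.9 and 72.9 CPM after ADAR1 p110 and 74.0, 72.1 and 74.2 CPM after GFP, and the groups overlapped. The SD of log2 CPM was 0.01 after ADAR1 p110 and 0.02 after GFP. The log2 fold change was 0.00 (SE 0.048, edgeR adjusted p = 0.989), with a 95% interval of -6.92% to 7.75%. NNAT, the imprinted neuronatin gene inside the BLCAP locus, had 8 counts over the 6 libraries and was not tested.

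IGFBP7 (ENSG00000163453.11_2, hg19 chromosome 4, 57896939 to 57976551, minus strand) encodes a secreted protein that binds insulin-like growth factors and insulin. It had 460, 498 and 458 CPM after ADAR1 p110 and 382, 435 and 411 CPM after GFP. The lowest ADAR1 p110 library lay above the highest GFP library. The log2 fold change was 0.20 (SE 0.0603, 95% interval 0.07 to 0.34), or 15.2% higher, with an unadjusted edgeR p of 0.00629 and an adjusted p of 0.0872, above the threshold. It passed with the DESeq2 Wald test, at an adjusted p of 0.0425. With edgeR it passed without a low-count filter, at an adjusted p of 0.0113, where 4.57% of genes were called. It also passed without ADAR1 p110 replicate 1 (adjusted p = 0.0328, 9.19% of genes called) and without that library and GFP replicate 2 together (adjusted p = 0.000865, 13.4% called). Over 14 alternatives the log2 fold change ran from 0.16 to 0.27 and the adjusted p from 0.000865 to 0.297. Between the libraries that stood apart the log2 difference was 0.08, and between the means of the other 4 libraries it was 0.27. POLR2B, a subunit gene of RNA polymerase II, overlaps IGFBP7 on the opposite strand, and its counts came to 77.1% of those of IGFBP7. It stood at 334 ± 18.2 and 345 ± 2.11 CPM and its exons share 13.5% of the exonic bases of IGFBP7, so reads of the 2 genes may not have been fully parted.

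The list of insulin-like growth factor binding proteins, receptors and partners related to IGFBP7 gave 2 higher and 0 lower of 14 tested. That is 14.3% against 4.91% of all tested genes, with a median log2 fold change of 0.16 for the list. The growth factor genes themselves, IGF1 and IGF2, were too low to be tested. IGFBP1, another secreted binding protein, rose to 19.3 ± 0.747 CPM from 13.1 ± 0.525 CPM after GFP, or 0.56 on the log2 scale (SE 0.0663, edgeR adjusted p = 7.08e-04), and was called in all 14 alternatives. HTRA1, a secreted serine protease that can cleave such binding proteins, rose to 136 ± 9.65 CPM from 110 ± 2.47 CPM after GFP (log2 fold change 0.31, edgeR adjusted p = 0.0139). HTRA1 was no longer called when ADAR1 p110 replicate 2 or 3, or GFP replicate 1 or 3, was set aside (adjusted p = 0.0704 to 0.0791). IGFBP7 supplied 53.1% ± 2.91 of the length-scaled counts of the 7 numbered binding protein genes after ADAR1 p110 and 51.7% ± 1.60 after GFP (exact permutation p = 0.5, adjusted p = 0.643). IGFBP4, the next in level, stood at 278 ± 52.2 and 251 ± 48.5 CPM.

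Of the 9 recoding targets IGFBP7 had the smallest p, and the genes whose log2 CPM followed it most closely over the 6 libraries were VIM-AS1, FAM122A and SEPT7P2, among genes of at least 5 mean CPM. Their Pearson correlations with it were 0.985, 0.985 and 0.983, given as a description, since the values share libraries and scaling and the genes were picked from many. They had log2 fold changes of 0.14, 0.21 and 0.27, none of which passed the test.

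The DNA repair target varied more between libraries than between groups. NEIL1 (ENSG00000140398.13_3, hg19 chromosome 15, 75639296 to 75649455, plus strand) encodes a glycosylase that removes oxidised bases in base excision repair. It had 265, 419 and 345 counts after ADAR1 p110 and 390, 217 and 280 counts after GFP, or 3.49, 4.25 and 4.46 against 4.49, 2.99 and 2.85 CPM. GFP replicate 1 was the highest of all and the other GFP libraries were the lowest. For NEIL1 the log2 fold change was 0.24 (SE 0.173, edgeR adjusted p = 0.519), with a 95% interval of -9.26% to 53.9%, and it ran from 0.12 without GFP replicate 3 to 0.48 without GFP replicate 1. MAN2C1, which encodes an alpha-mannosidase and overlaps NEIL1 on the opposite strand, had 912% as many counts, and its exons share 26.4% of the exonic bases of NEIL1. It stood at 36.1 ± 4.66 and 32.7 ± 2.95 CPM. Its part in the NEIL1 count was not tested.

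Of 18 other base excision repair genes tested, 0 rose and 1 fell, that is 5.56% against 4.91% of all tested genes. The direction of calls varied with the processing. With library size alone 1 rose and 0 fell, where 989 of 18899 genes were called. The DESeq2 Wald test called 1 higher and 1 lower, against 6.89% of all tested genes. Leaving out ADAR1 p110 replicate 1 gave 3 higher and 1 lower, against 9.19% of all tested genes. The 18 genes had a median log2 fold change of 0.06. TDG, a thymine and uracil glycosylase, fell to 60.2 ± 1.52 CPM from 69.6 ± 1.10 CPM after GFP (log2 fold change -0.21, edgeR adjusted p = 0.0378). It was no longer called with library size alone (adjusted p = 0.0545), nor when any single library other than ADAR1 p110 replicate 1 was set aside (adjusted p = 0.106 to 0.152). NEIL1 held 5.07% ± 0.525 of the length-scaled counts of NEIL1, NEIL2 and NEIL3 after ADAR1 p110 and 4.72% ± 1.23 after GFP (exact permutation p = 0.7, adjusted p = 0.787).

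A further 23 genes with known recoding sites were listed for comparison, many of them ion channels and receptors of neurons. Of these, 11 were tested and 0 were called, against 4.91% of all tested genes, with a median log2 fold change of 0.03. The channel and receptor genes GRIA2, GRIA3, GRIA4, GRIK1, KCNA1, CACNA1D, HTR2C and GABRA3 were below the limit for testing, as were UNC80, CADPS, NOVA1 and GLI1. The glutamate receptor gene GRIK2 was tested, at 2.17 ± 0.349 CPM after ADAR1 p110 and 2.03 ± 0.678 CPM after GFP. Its log2 fold change was 0.10 (edgeR adjusted p = 0.870). PODXL, the podocalyxin gene, had the largest difference, with a log2 fold change of -0.36 (edgeR adjusted p = 0.133), and is named here after its value was known. Its groups overlapped, at 252, 190 and 184 CPM after ADAR1 p110 and 257, 310 and 238 CPM after GFP. TMEM63B, also named after its value was known, had the smallest p of the list (log2 fold change -0.18, edgeR adjusted p = 0.105). It was lower in every ADAR1 p110 library, as were 12.2% of all tested genes.

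**Figure D4:**
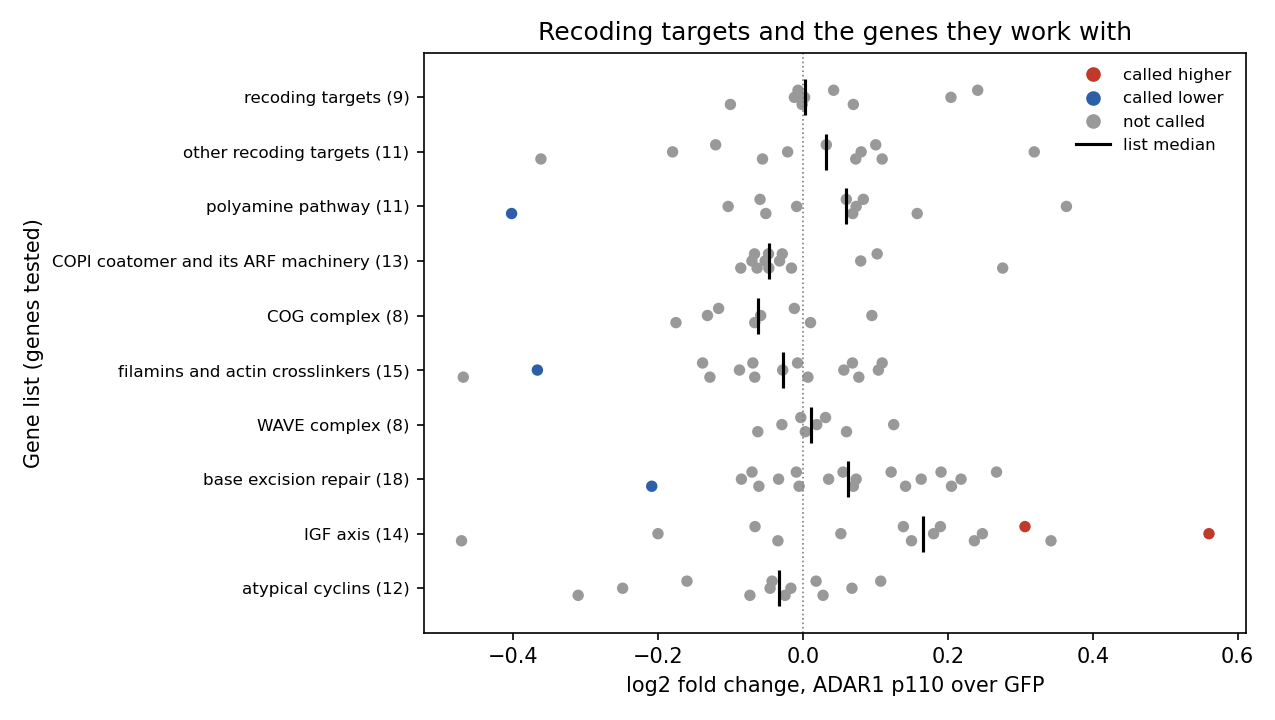
Each point is a tested gene of the list named at left, placed by its log2 fold change (above 0 is higher after ADAR1 p110), red or blue where called and grey elsewhere, with a black bar at the list median. The recoding targets lie between -0.10 and 0.24, and the called genes are SMOX, FBLIM1 and TDG, which were lower, and IGFBP1 and HTRA1, which were higher.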

How the data were processed

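Total RNA from 6 libraries was sequenced after preparation with a stranded kit, per the labels' protocols. The authors used STAR 2.5.2a for alignment and featureCounts 1.5.1 for counting, on hg19, per the submitters' processing notes, and deposited raw counts per gene. Those notes also list DESeq2 1.4.5 and R 3.1. Whether counting used strand, and how reads with several alignments or duplicates were treated, is not given in the sources used here. The other deposited column used, gene length in bases, is per the file headers.

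After filterByExpr (minimum count 10) and TMM scaling, counts were fitted with edgeR 4.0.16 in R 4.3.3 (glmQLFit and glmQLFTest) with no term but group. The Benjamini-Hochberg adjustment ran over all tested genes, with a threshold of 0.05. SEs came from the F statistic and the 95% intervals are not adjusted. Family shares were compared by exact permutation, where no p could fall below 0.1. A p above 0.05 was thus fixed in advance and does not show that a share was unchanged. Libraries of a group differed by more than sampling noise (chi-square per degree of freedom 8.64 to 39.7), so each counted as 1 sample. A count of 0 allows up to 3 counts, or 0.0304 to 0.0414 CPM, a limit of counting error only. The tests were checked on simulated counts.

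The genes, partner lists and tests were chosen with earlier results of these data known. The naming rule took the 9 genes, up to 3 called genes per list with the smallest p or else its most abundant member per kilobase, the relatives used in families, overlapping genes with at least 5% as many counts, and 3 genes most correlated with the target of smallest p. One gene that this rule names is not reported here. Recoding sites were taken from general knowledge and located with GENCODE release 44 on GRCh37, the build of the files. Shared exonic bases were counted over all exons of that release, which may not be the annotation that the authors counted on. For COPA it gave 17664 exonic bases, against a deposited length of 6232. Alternatives were DESeq2 size factors, library size alone, no low-count filter, DESeq2 1.42.0, limma-voom (limma 3.58.1), a replicate block, removal of ADAR counts, leaving out each library, and leaving out the pair set apart on the second component. Marker lists for other cell types gave summed levels of 3.98 to 4.75 CPM after ADAR1 p110 and 4.27 to 5.42 CPM after GFP for 5 leukocyte genes, 12.7 to 13.4 and 10.2 to 12.8 CPM for 5 neuronal genes, and at most 0.211 and 0.193 CPM for endothelial genes. Of these markers for other cell types 1 was called, TUBB3 of the neuronal list. TUBB3 stood at 3.97 ± 0.226 CPM after ADAR1 p110 and 2.69 ± 0.350 CPM after GFP (log2 fold change 0.57, edgeR adjusted p = 0.0238). RBFOX3, a defining neuronal marker, had 0 counts in 5 of 6 libraries. The labels name no cells other than MDA-MB-231, and the source of these marker reads was not tested.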

Additional observations from a re-analysis of the deposited data

How the results depend on the processing

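Of the 9 recoding targets, 0 were called under the DESeq2 size factors, library size alone, limma-voom, the replicate block and removal of ADAR counts. In that order 927, 989, 958, 508 and 923 genes were called over all genes, of 18899 tested (18898 without ADAR). IGFBP7 alone of the 9 was called with no low-count filter, the DESeq2 Wald test and without the pair set apart on the second component. That pair was ADAR1 p110 replicate 1 with GFP replicate 2. The log2 fold changes of IGFBP7 were then 0.2059, 0.2041 and 0.2716, where 4.57%, 6.89% and 13.4% of all tested genes were called. When single libraries were left out, 0 to 1 of the 9 were called. The 1 came without ADAR1 p110 replicate 1, where 9.19% of all tested genes were called. The IGFBP7 value ran from 0.16 to 0.2551 when single libraries were left out. The sign of near-zero values turned: AZIN1 to 0.0118 and CCNI to 0.0175 and COG3 to 0.0224 with library size alone, COG3 to 0.0001 with no filter, and AZIN1 to 0.0142, BLCAP to -0.0105 and COG3 to 0.0088 without the pair. Leaving out single libraries gave ranges of -0.0261 to 0.0173 for AZIN1, -0.0063 to 0.0128 for BLCAP, -0.1233 to 0.0744 for CCNI, -0.0152 to 0.0215 for COG3 and -0.204 to 0.2589 for CYFIP2, which had no adjusted p in the DESeq2 test. COPA, FLNA and NEIL1 kept their sign and stayed uncalled in all 14 alternatives. For family shares, single libraries left out (added after the data were seen) moved the difference from -0.03316 to 0.03578 points for CYFIP2 and from -0.1109 to 1.039 for NEIL1, and the shares of the other 7 kept their sign, also without length scaling.

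Over all tested genes 927 were called (368 higher, 559 lower), 989 with library size alone (510 higher, 479 lower), 1553 with no filter, 508 with the replicate block, 2605 without the pair, and 396 to 1812 when 1 library was left out. That count was 1812, 483 and 446 without ADAR1 p110 replicates 1, 2 and 3, and 396, 672 and 464 without GFP replicates 1, 2 and 3. Replicate numbers did not pair the samples: deviations of same-numbered libraries correlated at -0.11, -0.03 and 0.04, and they share only a number. Under the block SMOX and TDG were no longer called (adjusted p = 0.052 and 0.138).

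For the partner lists, calls are given as the count with all libraries and then the range when 1 library was left out. Other recoding targets had 0 and 0 to 2, polyamine genes 1 and 0 to 2, and filamins and crosslinkers 1 and 0 to 1. Base excision repair had 1 and 0 to 4, and the binding proteins and partners related to IGFBP7 had 2 and 1 to 3. Atypical cyclins had 0 and 0 to 1. The share called over all tested genes was 4.91% with all libraries and 9.19% without ADAR1 p110 replicate 1. Without the pair, where 13.4% of all tested genes were called, list calls were 4 of 11, 2 of 11, 2 of 15, 4 of 18, 6 of 14 and 1 of 12 in that order. For the COG complex 1 of 8 rows was then called. No filter, with 4.57% of all genes called, gave 2 of 19 for other recoding targets and 2 of 18 for repair. It gave 5 of 15 for the genes related to IGFBP7 and 1 of 12 for cyclins. The DESeq2 test, with 6.89% of all tested genes called, gave 2 of 18 for repair and 1 of 12 for cyclins. The replicate block, with 508 of 18899 genes called, gave 0 of 11 for polyamine genes and 0 of 18 for repair. COPI and WAVE lists had 0 throughout. The cause of these shifts was not tested, and fewer libraries were fitted where libraries were left out. Depth limits CYFIP2, at 16 to 38 counts per library.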
